A study of Homo sapiens with 9 samples.

Results

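CFLAR, CASP10 and BAD are 3 regulators of apoptosis. They were chosen by name, with earlier results of these data known, and are 3 of the 49 genes whose counts were analysed in HK-2 cells. HK-2 is an immortalized line of human proximal tubule epithelium. RNA was sequenced from 9 libraries in 3 groups of 3. The shCtrl-Normal group carried a control shRNA and received no AGEs by its name. The shCtrl-AGEs group carried the same control shRNA and was treated with AGEs (advanced glycation end products, proteins altered by sugars), and the shJMJD1A-AGE group carried a lentiviral shRNA against the H3K9 demethylase JMJD1A (KDM3A) and was treated as well. Treated cells were kept for 72 h with AGEs at 400 μg/ml. The label text on treatment is the same for all 9 libraries, so only the group names set the untreated cells apart. There was no untreated group with the JMJD1A shRNA, and the study describes a single shRNA sequence, so an effect of silencing cannot be told apart from an effect of that sequence.

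Apoptosis can be started from outside the cell by death receptors or from inside by the mitochondrion. At a death receptor the adaptor FADD binds caspase-8 and caspase-10 through death effector domains, and the caspases cut and activate each other. c-FLIP, the product of CFLAR, has the same domains but its caspase-like part has no protease activity, so that it competes for places in the complex. BAD belongs to the BH3-only proteins of the BCL2 family, which bind and block survival proteins such as BCL-XL on the mitochondrion, and its phosphorylation by survival kinases such as AKT holds it in the cytosol. Tubular cells die by apoptosis in diabetic kidney disease, and the study followed apoptosis of AGEs-treated HK-2 cells by flow cytometry.

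In GRCh38, GENCODE release 44 places CFLAR (ENSG00000003402) on chromosome 2 from 201116154 to 201176687, plus strand. CASP10 (ENSG00000003400) follows on the same strand from 201182872 to 201229428, with a gap of 6185 bp between the genes. CASP8, which encodes caspase-8, comes next. BAD (ENSG00000002330) lies on the minus strand of chromosome 11 from 64269830 to 64284704. Of the length covered by its exons, 23.7% of BAD was overlapped by exons of GPR137 on the other strand. For CFLAR 12.1% was overlapped, by CFLAR-AS1 and IMPDH1P10 on the other strand and by ENSG00000234431 on its own, and for CASP10 no exon was overlapped. No strand setting was stated for the counting, so reads within these overlaps cannot be told apart. The counts are per gene and do not separate the long and short forms of c-FLIP.

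**Figure D1:**
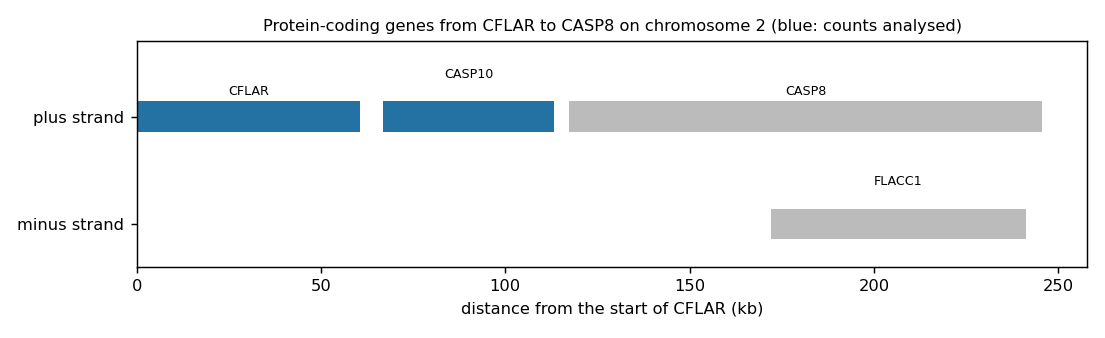
Protein-coding genes from CFLAR to CASP8 on chromosome 2, drawn to scale as the distance in kb from the start of CFLAR, with the plus strand above and the minus strand below. CFLAR and CASP10 sit side by side with a gap of 6.2 kb, and blue marks genes whose counts were analysed.

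The RefSeq promoter table (GRCh38.p14) held 4 windows for CFLAR and 2 overlapping windows for BAD, each from 250 bases before a start to 50 after it, and none for CASP10, whose promoter was not examined here. The most upstream of the 4 CFLAR windows (chr2:201118466-201118765, plus strand) is shown because CFLAR was the member that rose with AGEs. The GENCODE start of CFLAR, at 201116154, lies further upstream and is in none of them. A BAD window (chr11:64284655-64284954, minus strand) is shown beside the CFLAR window. Capitals mark matches, on either strand, to the NF-kB motif and to ACGTG or GCGTG, the letters bound by hypoxia-inducible factors; matches can overlap each other.
CFLAR: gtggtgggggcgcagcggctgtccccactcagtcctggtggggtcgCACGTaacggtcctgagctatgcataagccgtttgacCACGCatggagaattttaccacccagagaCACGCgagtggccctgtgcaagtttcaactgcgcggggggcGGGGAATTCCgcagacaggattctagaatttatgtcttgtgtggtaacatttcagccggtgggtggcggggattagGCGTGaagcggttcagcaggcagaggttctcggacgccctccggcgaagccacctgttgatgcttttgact
BAD: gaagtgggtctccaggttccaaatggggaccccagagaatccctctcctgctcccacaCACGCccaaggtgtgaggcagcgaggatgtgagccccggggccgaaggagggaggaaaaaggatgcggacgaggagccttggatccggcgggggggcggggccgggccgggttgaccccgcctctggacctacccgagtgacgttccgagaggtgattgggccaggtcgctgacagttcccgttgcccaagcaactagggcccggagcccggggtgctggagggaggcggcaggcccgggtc
The CFLAR window held 1 match to the NF-kB motif, 1 to ACGTG and 3 to GCGTG. The NF-kB motif was found in 11.3% of 35116 windows of this length, and ACGTG or GCGTG in 48.4%. Of the other 3 CFLAR windows, none matched the NF-kB motif and 1 matched GCGTG. The BAD window matched GCGTG 1 time and neither of the others. These matches are letters in the sequence, and which start was used was not measured.

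The values below are raw counts, the deposited reads per gene, and normalized counts, which are the same counts scaled between libraries by the TMM method of edgeR. The sum over the 49 genes ranged from 67563 counts in shJMJD1A-AGE replicate 2 to 107036 in shCtrl-Normal replicate 1. The depth of the whole libraries is not known, so the scale is set by the other genes analysed. JMJD1A itself was not analysed here, and neither were the 13 proximal tubule and epithelial markers listed, so the labels could not be checked by them. Of 5 leukocyte markers, CD38 and FGR were analysed and had 6 counts together over all libraries.

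Per kb of the canonical transcript, BAD had the highest level and CASP10 the lowest in every group. Mean normalized counts per kb were 490 to 542 for BAD, 305 to 424 for CFLAR and 106 to 156 for CASP10. The order was the same per kb of all annotated exons, where the means were 266 to 295 for BAD, 198 to 275 for CFLAR and 67.5 to 99.1 for CASP10. The canonical lengths were 929 bp for BAD, 14612 bp for CFLAR and 5668 bp for CASP10. CFLAR had more counts than BAD in every library, so the order of these genes rests on the lengths used. Which transcripts were present was not measured, and a shorter CFLAR transcript would raise its level per kb.

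Treatment with AGEs raised CFLAR and left no detectable change in CASP10, while the call on BAD rested on a single library. Raw CFLAR counts were 5170, 5207 and 4769 in shCtrl-Normal and 6461, 5758 and 5789 in shCtrl-AGEs. After scaling, the 3 untreated libraries had 4516, 4675 and 4181 normalized counts and the 3 treated libraries 6350, 6100 and 6120, so every treated library was above every untreated one. The means were 4457 ± 252 (SD, n = 3) and 6190 ± 139 (SD, n = 3). The log2 fold change was 0.51 (standard error 0.071), a fold of 1.42 with a 95% interval from 1.29 to 1.57, and the adjusted p was 2.63e-10 by edgeR's quasi-likelihood F test (Benjamini-Hochberg over 46 genes). With all 3 groups in one fit the log2 fold change was 0.47 (standard error 0.12) and passed with a much larger adjusted p of 0.0118 (edgeR). The fold was under the 2-fold threshold of the study. In a bulk sample, a change in how many cells hold a transcript and a change in its amount per cell cannot be told apart. CFLAR ranked 4 of 46 by log2 fold change. Among all genes tested 32.6% passed in this comparison (9 higher, 19.6%, and 6 lower, 13%), and 0% passed with a fold of at least 2. The groups did not overlap in 47.8% of genes, 21.7% with the treated libraries higher. Scaled by plain totals the split was 6 higher and 11 lower. CFLAR was also compared with the other genes inside each library, which needs no scaling. The ratio of CFLAR counts to those of another gene was higher in all treated than in all untreated libraries for 36 of 45 genes and lower for 1, with a median change of 0.52 on the log2 scale. The same counts were 4 higher and 8 lower for CASP10, and 1 higher and 2 lower for BAD.

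CASP10, a caspase that c-FLIP competes with, had 757, 725 and 695 raw counts in shCtrl-Normal and 648, 523 and 582 in shCtrl-AGEs. In normalized counts the libraries overlapped, at 661, 651 and 609 untreated and 637, 554 and 615 treated. The log2 fold change was -0.053 (standard error 0.079, fold 0.964 with a 95% interval from 0.865 to 1.07), and it did not pass (adjusted p = 0.63, edgeR's quasi-likelihood test). A rise of the size seen for CFLAR lies outside that interval. BAD had 476, 459 and 695 raw counts in shCtrl-Normal and 476, 499 and 486 in shCtrl-AGEs. One untreated library stood apart: shCtrl-Normal replicate 3 had 609 normalized counts of BAD, the highest of all 9 libraries, against 416 and 412 in the others of its group. The log2 fold change of BAD was 0.11 (standard error 0.20, fold 1.08 with a 95% interval from 0.755 to 1.53; adjusted p = 0.73, edgeR). Without shCtrl-Normal replicate 3 it was 0.32 and passed (adjusted p = 0.00193, edgeR with 2 libraries against 3), so the call on BAD rested on that library. With all libraries kept, a rise of the size seen for CFLAR lies inside the interval of BAD.

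**Figure D2:**
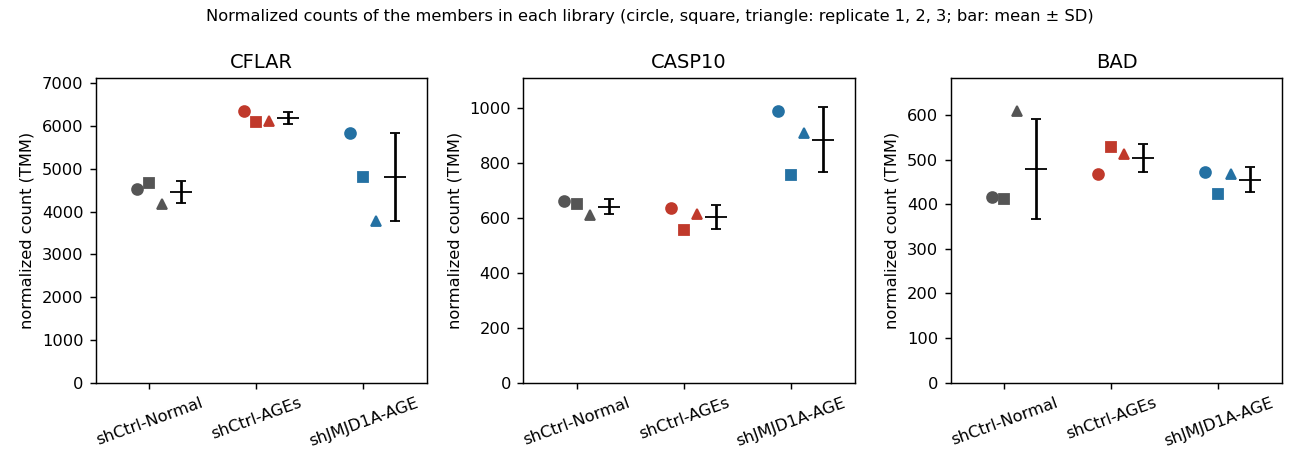
Normalized counts of CFLAR, CASP10 and BAD (y axes, each from 0) in the 3 groups. Each symbol is a library, with circle, square and triangle for replicates 1, 2 and 3, and the bar beside them gives the mean and SD. The treated control libraries of CFLAR sit at 6100 to 6350, above all others, and CASP10 is highest in shJMJD1A-AGE.

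Under AGEs, cells with the JMJD1A shRNA had more CASP10 than cells with the control shRNA. Raw CASP10 counts were 884, 607 and 905, against 648, 523 and 582 in shCtrl-AGEs, although the sums over the 49 genes were 67563 to 86854 in the first group and 85894 to 98250 in the second. In normalized counts the values were 989, 756 and 909 against 637, 554 and 615. Replicate 2 was the lowest of its group and was still above every library of both other groups. The means were 884 ± 118 (SD, n = 3) and 602 ± 42.9 (SD, n = 3). The log2 fold change was 0.53 (standard error 0.11), a fold of 1.44 with a 95% interval from 1.21 to 1.71, and it passed (adjusted p = 0.00259, edgeR's quasi-likelihood test over 45 genes). CASP10 ranked 5 of 45. Of the genes tested 42.2% passed (9 higher, 20%, and 10 lower, 22.2%), and 8.89% passed with a fold of at least 2, which no member reached. The groups did not overlap in 53.3% of genes, 24.4% with shJMJD1A-AGE higher. Plain totals moved the median of all genes by 0.148 on the log2 scale and gave 13 higher and 8 lower; CASP10 passed with that scaling too, at 0.67. The ratio of CASP10 to another gene in the same library was higher without overlap for 26 of 45 genes and lower for 1. For BAD it was higher for 6 and lower for 13.

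CFLAR was lower in the shJMJD1A-AGE libraries, but the call depended on the fit. Normalized counts were 5845, 4809 and 3779, against 6350, 6100 and 6120 in shCtrl-AGEs, so the groups did not overlap, which held for 28.9% of genes with shJMJD1A-AGE lower. The spread was wide, with a mean of 4811 ± 1033 (SD, n = 3). Raw counts were 5225, 3863 and 3764. The log2 fold change was -0.39 (standard error 0.15, fold 0.763 with a 95% interval from 0.604 to 0.963), with an adjusted p of 0.0547 from edgeR's quasi-likelihood test, which misses the threshold. It passed in 6 of 15 alternatives, among them all 3 groups in one fit (adjusted p = 0.0214) and DESeq2's Wald test (adjusted p = 0.0455). With plain totals it was -0.25 and did not pass (adjusted p = 0.237, edgeR). Without shJMJD1A-AGE replicate 1 it was -0.53 (adjusted p = 1.32e-06) and without replicate 3 it was -0.25 (adjusted p = 0.00195), by the same edgeR test with 2 libraries against 3. The ratio of CFLAR to another gene was lower without overlap for 17 of 45 genes and higher for 3. For BAD, which passed in 0 of 15 alternatives, it was lower for 13 and higher for 6, so the count for CFLAR is little above that. The 45 ratios share the CFLAR counts and are not independent of each other.

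BAD had 423, 340 and 467 raw counts in shJMJD1A-AGE, which is 473, 423 and 469 normalized counts against 468, 529 and 514 in shCtrl-AGEs, and the groups overlapped. The log2 fold change was -0.17 (standard error 0.094, fold 0.887 with a 95% interval from 0.769 to 1.02; adjusted p = 0.169, edgeR), and it passed in 0 of 15 alternatives. With plain totals it was -0.029. Of the 3 members BAD had the smallest log2 fold change in size in this comparison.

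**Figure D3:**
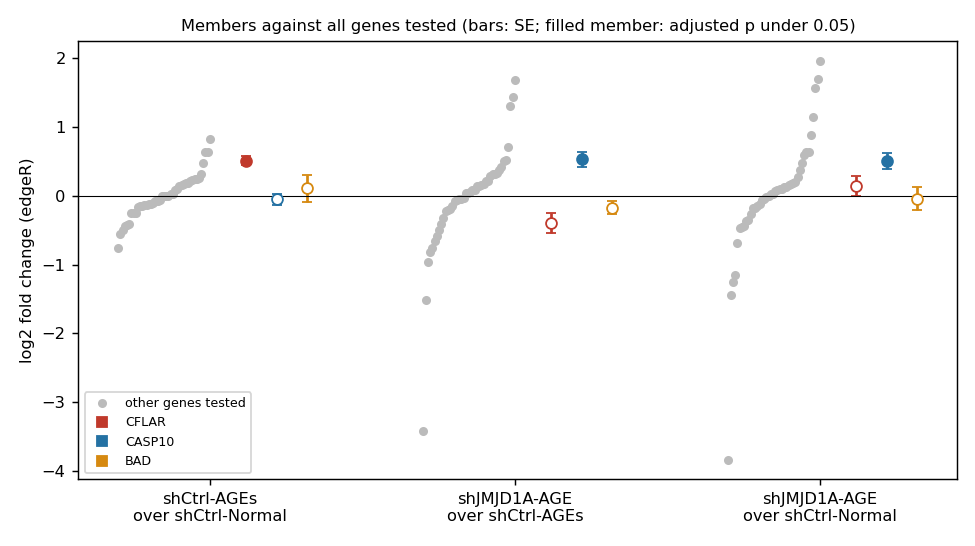
Log2 fold change (y axis) in the 3 comparisons (x axis), with each other gene tested in grey and the members in colour. Bars are standard errors and filled points passed at an adjusted p under 0.05; CFLAR passed with AGEs (0.51), and CASP10 passed in both comparisons of shJMJD1A-AGE (0.53 and 0.50).

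**Figure D4:**
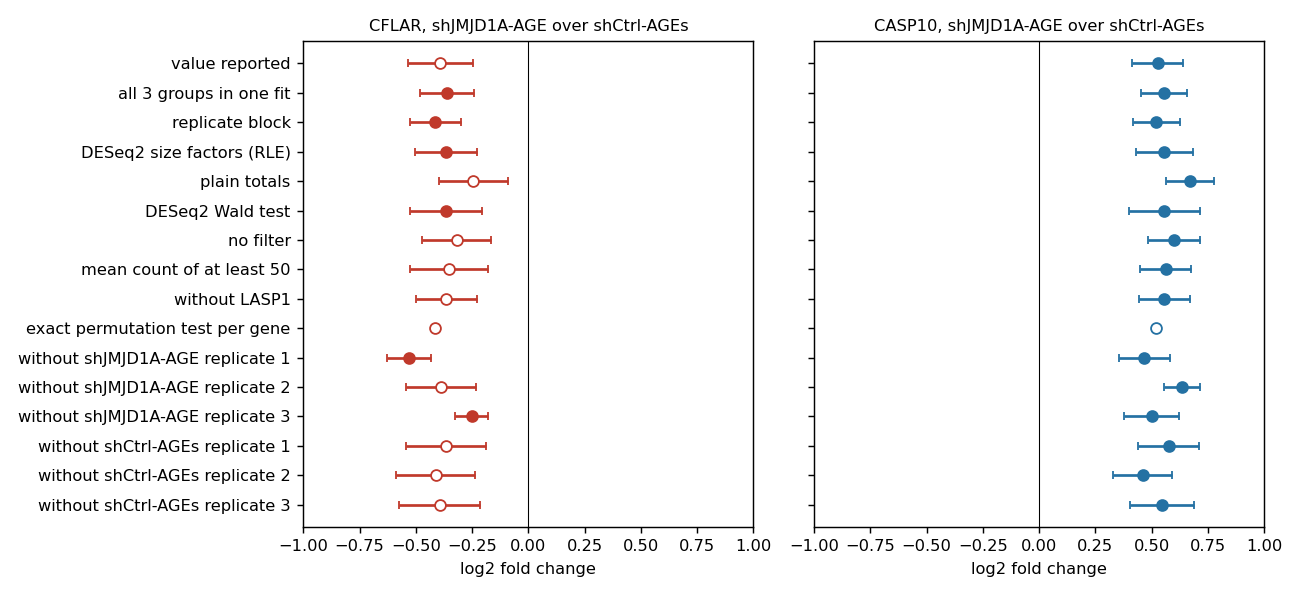
Log2 fold change of CFLAR (left) and CASP10 (right) in shJMJD1A-AGE over shCtrl-AGEs, for the value reported and 15 alternatives. Bars are standard errors (none for the permutation test) and filled points passed; every value of CFLAR is below 0 and every value of CASP10 above 0, while CFLAR passed in 6 of 15 and CASP10 in 14 of 15.

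The third comparison set treated, silenced cells against untreated control cells, so treatment and shRNA differed together. CASP10 was higher at 0.50 on the log2 scale (standard error 0.12, fold 1.41 with a 95% interval from 1.18 to 1.69; adjusted p = 0.00512, edgeR's quasi-likelihood test over 45 genes), with no overlap between the groups. Of the genes tested 40% passed (17.8% upward and 22.2% downward), and in 55.6% the groups did not overlap. CFLAR was at 0.14 (standard error 0.14, fold 1.10 with a 95% interval from 0.888 to 1.37) and did not pass (adjusted p = 0.486, edgeR), and its groups overlapped. It was at 0.29 and passed without shJMJD1A-AGE replicate 3 (adjusted p = 0.00719) and was at -0.0092 without replicate 1. BAD was at -0.045 (standard error 0.17, fold 0.969 with a 95% interval from 0.748 to 1.26; adjusted p = 0.873, edgeR). Its sign changed without shCtrl-Normal replicate 3 (0.20), without shJMJD1A-AGE replicate 2 (0.034) and with plain totals (0.017). In the order of levels CFLAR was highest in shCtrl-AGEs, and its levels in shJMJD1A-AGE and shCtrl-Normal did not differ beyond their spread. CASP10 was highest in shJMJD1A-AGE, and shCtrl-Normal and shCtrl-AGEs did not differ beyond theirs. For BAD no neighbours in the order differed beyond their spread. The 3 comparisons share libraries and are not independent of each other.

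The number of CFLAR counts per CASP10 count did not overlap between the 3 groups. How often this holds for other pairs of genes was not counted. A ratio within a library is free of the scaling between libraries, although it is not a ratio of molecules because the transcripts differ in length. In shCtrl-Normal it was 6.83 (95% exact binomial interval 6.33 to 7.38), 7.18 (6.64 to 7.77) and 6.86 (6.34 to 7.44). In shCtrl-AGEs it was 9.97 (9.20 to 10.8), 11.01 (10.1 to 12.1) and 9.95 (9.13 to 10.9). The 3 treated control libraries were thus above all untreated ones, with intervals that did not touch. In shJMJD1A-AGE it was 5.91 (5.50 to 6.35), 6.36 (5.84 to 6.94) and 4.16 (3.87 to 4.48), below every library of both other groups. The intervals of replicates 1 and 2 overlapped with intervals of shCtrl-Normal. Replicate 3 stood lowest, and its interval touched no other. The intervals cover counting error only and not the spread between libraries. Reads copied by PCR are not independent molecules, so the intervals may be too narrow even for counting error.

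**Figure D5:**
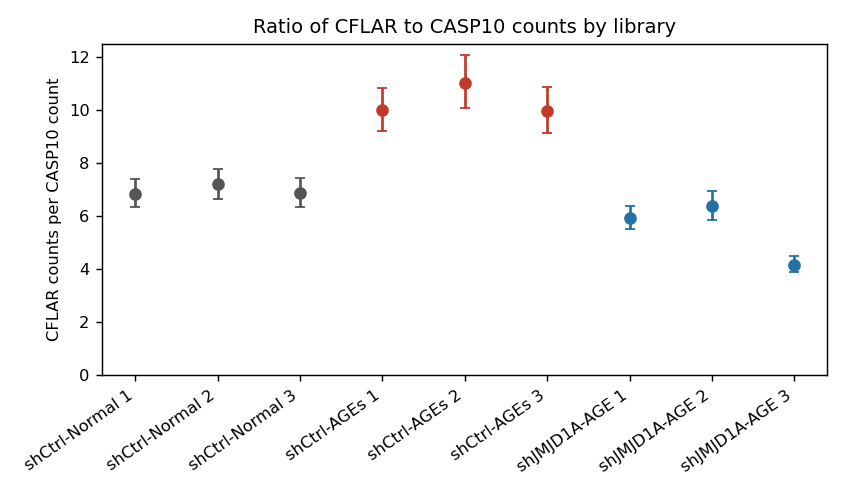
CFLAR counts per CASP10 count (y axis, from 0) in each of the 9 libraries (x axis), coloured by group. Bars are 95% exact binomial intervals of the counts; the shCtrl-AGEs libraries lie at 9.95 to 11.01, shCtrl-Normal at 6.83 to 7.18 and shJMJD1A-AGE at 4.16 to 6.36.

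The mean ratio was 6.96 ± 0.195 (SD, n = 3) untreated, 10.3 ± 0.607 (SD, n = 3) with AGEs and 5.48 ± 1.16 (SD, n = 3) with AGEs and the JMJD1A shRNA. The log2 difference for shCtrl-AGEs over shCtrl-Normal was 0.57 (standard error 0.054), a fold of 1.48. The value for shJMJD1A-AGE over shCtrl-AGEs was -0.93 (standard error 0.20), a fold of 0.523, and for shJMJD1A-AGE over shCtrl-Normal it was -0.37 (standard error 0.19), a fold of 0.775. Each of the 3 pairs gave p = 0.1 in a two-sided exact permutation test, also after adjustment over the 3, which is the smallest p that 3 libraries against 3 allow, so no pair could pass. Leaving out shJMJD1A-AGE replicate 3 changed the last value to -0.18, and its direction held. A test over all 3 groups together was chosen after the values were seen. It enumerated 1680 arrangements of the 9 libraries for 4 values, with p adjusted over the 4. The exact permutation p of the ratio was 0.00357, the smallest possible (adjusted 0.0143). It was 0.0107 for CASP10 (adjusted 0.0214), 0.0679 for CFLAR (adjusted 0.0905) and 0.696 for BAD (adjusted 0.696). This test asks whether the groups differ at all and not which ones. The ratio had already been seen to separate the 3 groups without overlap, which by itself fixes its p at the smallest possible value. That p is therefore a description and no further support. The adjustment covers only these 4 values, whose genes were chosen with earlier results of these data known.

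Around these members, a list of 44 core apoptosis genes had no other gene among the 49 analysed. In the list 1 of 3 genes passed upward and 0 downward in each comparison, which was CFLAR with AGEs and CASP10 in the other 2. Over all genes tested, 19.6%, 20% and 17.8% passed upward, and 32.6%, 42.2% and 40% passed in either direction. With only 3 genes the list cannot be told apart from these shares. The median log2 fold change of the 3 was 0.11, -0.17 and 0.14, against -0.0073, 0.041 and 0.061 over all genes tested. From a wider list of genes linked to cell death, RBM5, an RNA-binding protein that controls splicing of apoptosis genes, and SARM1, an NAD-cleaving enzyme of axon degeneration, passed in none of the comparisons.

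Likeness over the 9 libraries was measured as the root mean square difference of centred log2 normalized counts. LASP1, an actin-binding protein, was the gene most like CFLAR (0.20), and CASP10 ranked 31 of 45 (0.42). Those most like CASP10 were GCLC (0.17), LAS1L (0.18) and M6PR (0.19). Among those most like BAD were SNX11 and LASP1, both at 0.14. These values describe the same 9 libraries and carry no test.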

How the data were processed

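RNA of HK-2 cells was sequenced from 9 libraries, 3 per group, grouped by the sample titles. The deposited values are raw read counts per gene. By the submitters' processing notes, the authors used Trim Galore for trimming, HISAT2 (2.1.0) for mapping to GRCh38, featureCounts for the counting and DESeq2 for their comparisons. The strand setting is not given in the sources used here. Nothing says whether replicates were separate cultures, so p-values measure only the spread between these libraries. The edgeR test shares its estimate of that spread over genes. With AGEs it had 184 degrees of freedom for CFLAR and CASP10 and 4.70 for BAD. At 184 the p-value and interval rest almost wholly on the spread shared over genes and hardly on that of the named gene. The intervals and p-values of the 3 members are therefore not on a like footing.

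Each pair of groups was fitted with edgeR 4.0.16 (R 4.3.3) on all 49 genes (filterByExpr with minimum count 10 and minimum total 15, TMM, robust quasi-likelihood F test, no covariate), with Benjamini-Hochberg adjustment over all genes tested and a threshold of 0.05. Each standard error was obtained as log2 fold change over the root of F. Ratios were compared by exact permutation. The edgeR fit was tested on simulated counts with known fold changes. The simulation gave every gene the same spread, so it does not cover genes such as BAD with AGEs, whose spread stood apart. Alternatives were a joint fit, a replicate block, DESeq2 size factors, plain totals, DESeq2 1.42.0, other filters (none, or a mean count of 50), leaving out LASP1, permutation per gene (pseudocount 1) and leaving out each library. The test over all 3 groups and the ratios to every other gene were added after seeing the data.

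Gene symbols, positions and lengths came from GENCODE release 44. Named genes are the members, genes of 2 cell death lists, genes within 1 Mb of a member, and the 3 genes most like each member. Some genes that these rules name are not reported here. The members and lists were chosen with earlier results of these data known.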

Additional observations from a re-analysis of the deposited data

How the results depend on the processing

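Direction and call held for CFLAR with AGEs in 14 of 15 alternatives, and for CASP10 in both comparisons of shJMJD1A-AGE in 14 of 15 each. The exception in all 3 was the exact permutation test per gene, in which no gene can pass with 3 libraries a group (0.51, 0.52 and 0.48, adjusted p 0.23, 0.167 and 0.214). The value of CFLAR in shJMJD1A-AGE over shCtrl-AGEs passed with all 3 groups in one fit (-0.36), DESeq2 size factors (-0.37) and DESeq2's Wald test (-0.37), and it was -0.53 to -0.25 when single libraries were left out. Over all alternatives the adjusted p ranged from 1.32e-06 to 0.237 in edgeR, DESeq2 and the exact permutation test. With single libraries left out, CFLAR in shJMJD1A-AGE over shCtrl-Normal was -0.0092 to 0.29, CASP10 with AGEs -0.088 to 0.00051, BAD with AGEs 0.0033 to 0.32, and BAD in shJMJD1A-AGE over shCtrl-Normal -0.14 to 0.20. Plain totals turned the last to 0.017 and gave -0.12 for CASP10 and 0.046 for BAD with AGEs, neither of which passed. The cause was not tested.

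The ratio of CFLAR to CASP10 kept its direction in all 9 alternatives of each pair. The labels give the replicates the same numbers in each group. Deviations of same-numbered libraries correlated at -0.429 to 0.312, and those of other numbers at -0.676 to 0.721. Correlations this scattered cannot tell whether the numbers pair the libraries. With the replicate block, CFLAR in shJMJD1A-AGE over shCtrl-AGEs passed at -0.41 (adjusted p = 0.00133, edgeR), and no other call on the members changed. With it 16, 19 and 19 genes passed in the 3 comparisons, against 15, 19 and 18. The exact permutation test per gene gave 0 in each.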

Other observations

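The spread within groups differed between the members. The coefficient of variation of normalized counts was 5.66%, 2.24% and 21.5% for CFLAR in shCtrl-Normal, shCtrl-AGEs and shJMJD1A-AGE, and 4.30%, 7.13% and 13.4% for CASP10. For BAD it was 23.5%, 6.30% and 6.07%. In shJMJD1A-AGE replicate 3 CFLAR was the lowest of all 9 libraries at 3779 normalized counts, while CASP10 in that library was 909, the second highest of all. RBM5 had group means of 1873, 1737 and 1820 normalized counts in the same order of groups, and SARM1 had 130, 120 and 130.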
